A study of Mus musculus with 18 samples.

Results

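This account covers 10 genes for the enzyme isoforms that carry glycolysis in the mouse retina. They are the hexokinases Hk1 and Hk2, the phosphofructokinases Pfkm and Pfkp, the aldolases Aldoa and Aldoc, the enolase Eno2, the pyruvate kinase Pkm, and the lactate dehydrogenase subunits Ldha and Ldhb. The members were taken as every probe set (a group of probes for 1 transcript) whose only gene symbol in the array annotation was 1 of these names, which gave 21 of 45101 probe sets, for 10 of 18194 genes. Each gene is described through its probe set of highest mean over all arrays. Retinas came from Plk3-KO mice, crossed to the C57Bl/6 strain, and from their WT littermates, at postnatal day (P) 0, P7 and in the adult, an age that the labels give without a day. The paper describes the line as partly Black Swiss, a background with the Rd1 allele of retinal degeneration. It was crossed to C57Bl/6 until that allele was gone from the litters. Each of the 6 groups held 3 Affymetrix whole-genome mouse arrays, 18 in all, and E16.5 arrays were not analysed here. The labels number the arrays of a group without naming animals or litters, so the p-values below measure the spread between these arrays. Values are MAS5 signals on the log2 scale, so that a step of 1 is a doubling of signal. Since probe sets differ in how well they bind, levels of different genes are not compared, and only the changes of each are.

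Glycolysis turns glucose into pyruvate in the cytosol, and several of its steps can be run by more than 1 isoform, each from its own gene. Hexokinase traps glucose in the cell, phosphofructokinase commits it to the pathway, aldolase splits the sugar, enolase and pyruvate kinase finish the conversion to pyruvate, and lactate dehydrogenase interconverts pyruvate and lactate. The mature retina is known for turning much of its glucose into lactate even in the presence of oxygen, and photoreceptors are its main users of glucose.

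Promoter sequence is shown for the 3 members whose changes stand at the ends of the range described below: Hk2 had the largest rise after P7, Aldoc the largest rise over all ages, and Ldha no called change after P7. Each sequence is the 250 bases before an annotated transcription start, from RefSeq on GRCm38.p6, written 5′ to 3′ on the strand of the gene. Capitals mark ACGTG or GCGTG on either strand (CACGT or CACGC when read on the other one), the core of the hypoxia response element, to which HIF-1, an activator of glycolytic genes, binds.
Hk2, chr6:82774455-82774704, minus strand: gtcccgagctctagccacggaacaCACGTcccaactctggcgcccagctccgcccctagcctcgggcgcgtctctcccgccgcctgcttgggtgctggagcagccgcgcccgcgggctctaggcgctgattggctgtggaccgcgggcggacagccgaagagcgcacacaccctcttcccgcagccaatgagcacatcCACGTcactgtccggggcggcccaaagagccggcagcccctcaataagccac
Aldoc, chr11:78322823-78323072, plus strand: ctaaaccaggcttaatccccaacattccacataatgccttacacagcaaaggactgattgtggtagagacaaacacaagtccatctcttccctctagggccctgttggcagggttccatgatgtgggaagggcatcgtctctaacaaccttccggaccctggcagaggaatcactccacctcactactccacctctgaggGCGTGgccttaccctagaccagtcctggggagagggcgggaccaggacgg
Ldha, chr7:46845554-46845803, plus strand: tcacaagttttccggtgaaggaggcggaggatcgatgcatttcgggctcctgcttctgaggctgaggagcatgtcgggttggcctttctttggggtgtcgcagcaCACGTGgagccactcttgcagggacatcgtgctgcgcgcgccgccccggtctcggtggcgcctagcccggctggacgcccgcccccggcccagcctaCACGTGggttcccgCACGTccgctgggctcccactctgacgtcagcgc
The Hk2 window held 2 matches of ACGTG, the Aldoc window shown 1 of GCGTG, and the Ldha window shown 5 of ACGTG, since the palindrome CACGTG, which is also an E-box, counts on both strands. Aldoc and Ldha also have a further window each, not shown. That of Ldha held 0 matches of ACGTG and 1 of GCGTG, and that of Aldoc 0 and 1. All 10 members had a window in the table, and their 19 windows, several of which overlap within a gene, held a match in 14 cases (73.7%), against 38.6% of all 32851 windows of the same length. Eno2 was the member without a match in its only window. The letters TAATCC, the core bound by the photoreceptor factor CRX and its OTX relatives, were present in 4 of the 19 windows, the Aldoc window above included, and in 6.25% of all windows. A match is a description of the letters and not a binding site.

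The arrays differed in ways that bear on the changes with age. Array medians ran from 6.3 to 7.2 on the log2 scale. At P7 the second Plk3-KO array and the third WT array stood apart (median 6.4, actin 3′ minus 5′ signal 1.6, against 0.8 to 1.1 on the other P7 arrays), and so did the third adult array of each genotype (medians 7.2 in Plk3-KO and 7.0 in WT). The actin 3′ minus 5′ signal, a measure of RNA and amplification quality, was 1.0 to 1.3 at P0. In the adult it was 2.7 on the third Plk3-KO array and 1.6 to 1.8 on the others. Of the lists of cell type markers, 13 of 15 rod photoreceptor genes were on the array. Their summed level (log2 of the summed signal) was 13.9 to 14.5 in Plk3-KO and 13.9 to 14.6 in WT at P0, 17.1 to 17.9 and 17.0 to 17.8 in these genotypes at P7, and 18.7 to 19.5 and 18.2 to 19.0 in the adult, with 5 of the 13 genes at or under 7 at P0 and 0 from P7 on. The retinal progenitor and cell cycle list, with 9 of 10 genes, ran the other way, at 16.2 to 16.4 in Plk3-KO and 16.1 to 16.3 in WT at P0 and 12.9 to 13.4 in both genotypes in the adult. The summed level of the pigment epithelium markers (6 of 6 on the array) reached 15.5 to 16.3 in adult Plk3-KO and 15.0 to 15.7 in adult WT retinas. At P0 it was 10.7 to 11.7 and 10.2 to 11.3. Ttr alone averaged 15.8 in Plk3-KO and 15.2 in WT in the adult. Of 5 genes tested, adult minus P0 was called higher for 3 in Plk3-KO and 4 in WT, and lower for 0. Lens markers (7 of 7) were 9.86 to 16.1 in Plk3-KO and 7.71 to 16.9 in WT at P0, 8.14 to 8.63 and 7.49 to 8.90 at P7, and 9.79 to 15.0 and 13.3 to 16.3 in the adult. From P7 to the adult, 0 of 6 lens genes tested were called higher in Plk3-KO (median 5.27) and 5 of 6 in WT (median 8.20), and the difference between these changes was called for 0 of 6. The part of these markers in the changes of the glycolytic genes was not tested, and in whole retina more cells of a type cannot be told apart from more RNA per cell. The only Plk3 probe set reads the 3′ end of the transcript, outside the deleted part, and so does not show the deletion itself. The paper reports a raised 3′ signal in the knockout, on arrays and by qPCR. Here the probe set measured 7.5 to 8.2 in Plk3-KO and 6.4 to 7.3 in WT at P0, 6.1 to 8.1 and 6.0 to 6.3 at P7, and 7.4 to 8.0 and 3.9 to 5.9 in the adult. The genotypes overlapped at P7 only.

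All 10 members rose between P0 and the adult, in both genotypes, but they took different routes. Aldoc, the brain type of aldolase, rose most, 40.3-fold in Plk3-KO and 32.7-fold in WT. Hk2, the hexokinase of adult photoreceptors, waited until after P7. Ldha, which favours lactate formation, was the member with no called change from P7 to the adult. In limma fits (a linear model for each probe set, with its variance moderated by those of all others) over the 18 arrays with Benjamini-Hochberg adjustment, called at an adjusted p under 0.05, adult minus P0 was higher for 10 of 10 members and lower for 0 in Plk3-KO and likewise in WT, where 19.4% and 20.7% of the 25085 probe sets tested were higher and 24.2% and 25.9% lower. The median of the members was 2.37 in Plk3-KO and 2.35 in WT on the log2 scale, beside -0.23 and -0.20 over all probe sets. From P0 to P7, 6 members were higher and 1 lower in Plk3-KO (10.1% and 9.66% of probe sets), and 6 were higher and 0 lower in WT (10.3% and 8.85%). From P7 to the adult, 9 members were higher and 0 lower in each genotype, against 7.96% higher and 9.2% lower of all probe sets in Plk3-KO and 8.54% and 8.79% in WT. The member medians were 0.83 in Plk3-KO and 0.78 in WT for the first step and 1.28 and 1.25 for the second, with -0.10 over all probe sets each time. Once each array was centred on its median, 4 members were higher from P0 to P7 in Plk3-KO and 5 in WT, 6 and 7 from P7 to the adult, and 10 in each genotype over both steps; this scaling put 57.7% and 61.0% of all adult minus P0 calls on the higher side, in place of 44.4% in each genotype, and 68.5% of P7 minus P0 calls in each, in place of 51.2% in Plk3-KO and 53.9% in WT. Every member passed the filter of a mean above 7, and each did so in every group. The Plk3-KO and WT counts for a pair of ages come from separate arrays but share the spread estimated over all 18 arrays. The steps before and after P7 also share the P7 arrays.

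**Figure D1:**
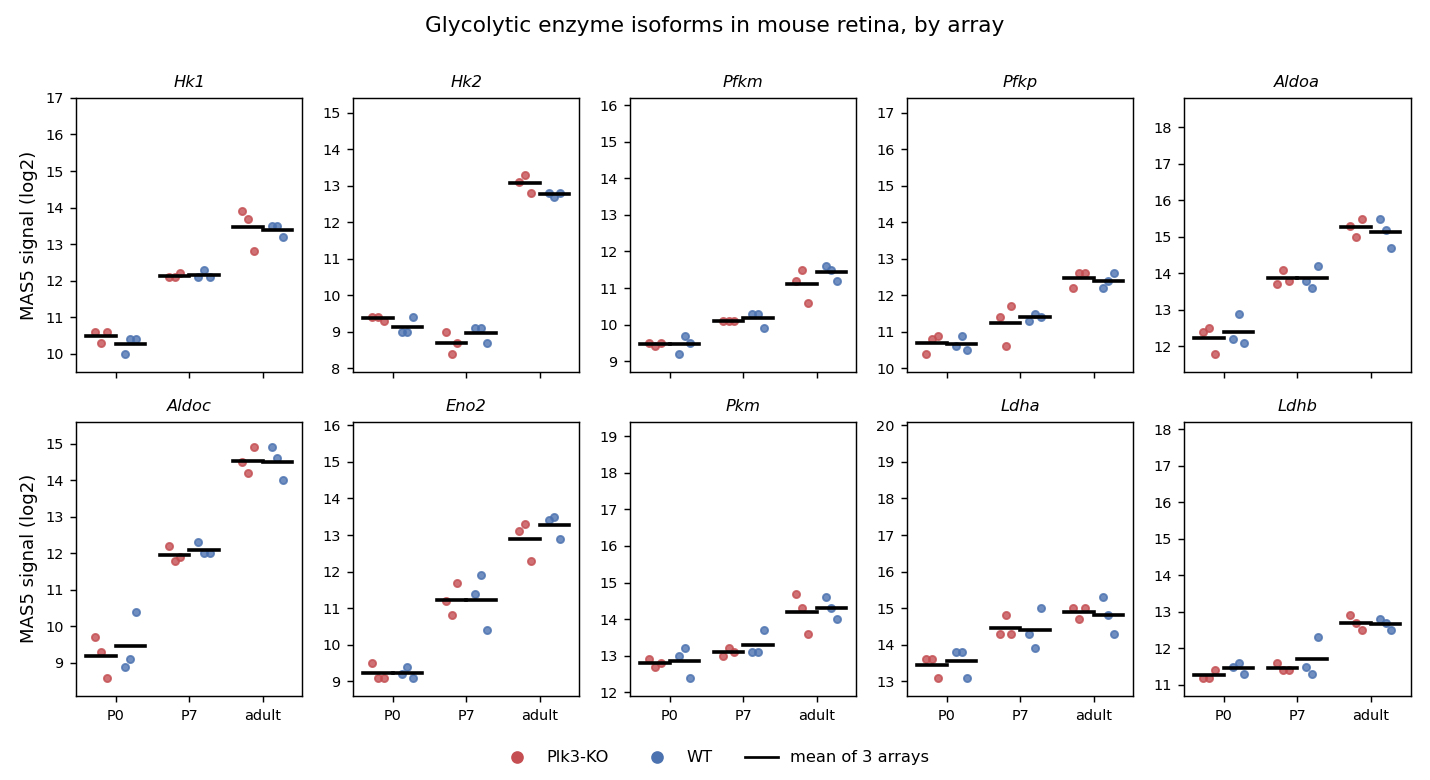
MAS5 signal (log2) of the leading probe set of each member on each array, by age, with Plk3-KO in red to the left of WT in blue and black bars at the mean of 3 arrays. Every vertical axis spans the same number of log2 units; Hk2 stays between 8.4 and 9.4 until P7 and lies between 12.7 and 13.3 in the adult, while Aldoc climbs at both steps.

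**Figure D2:**
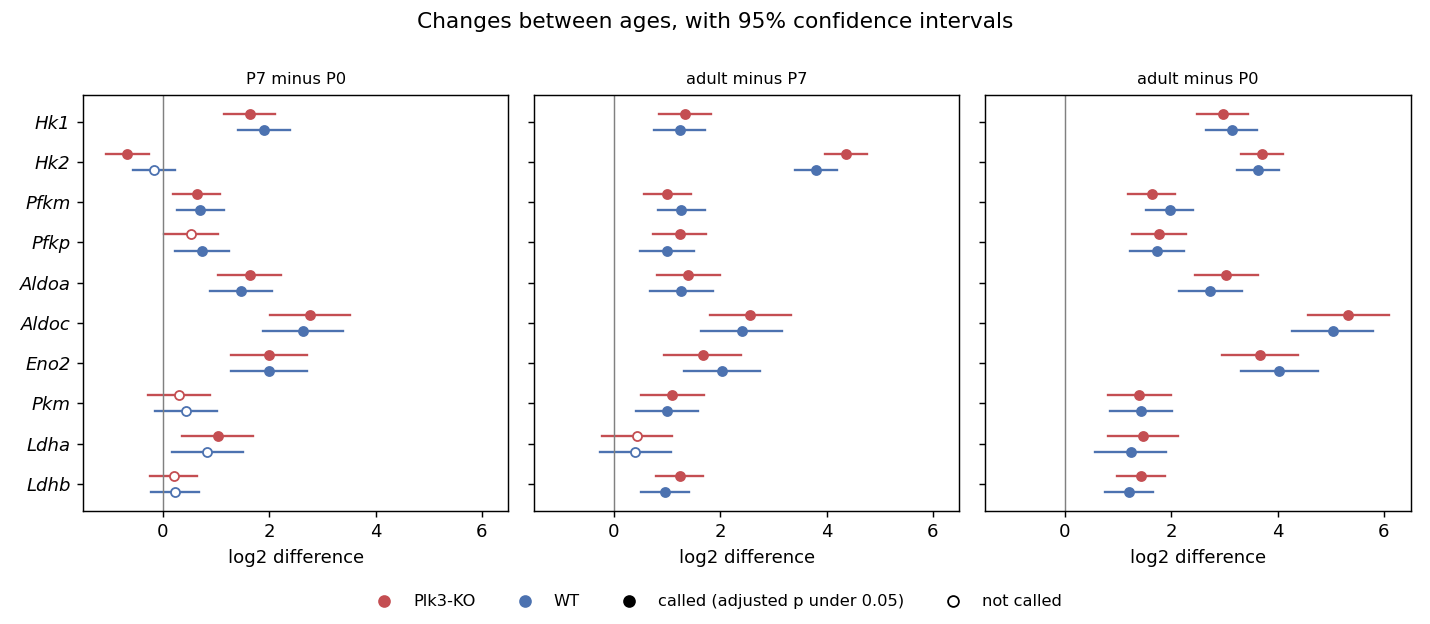
Difference between ages (log2) for each member, with Plk3-KO in red above WT in blue, filled where called and open where not, and lines for 95% confidence intervals of the limma fit. Hk2 sits left of 0 in the first panel and farthest right in the second, and the Ldha intervals of the second panel include 0.

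The 2 hexokinases followed different timing. Gene positions here and below are those of GRCm38.p6. Hk1 (chr10:62268855-62379920, probe set 1437974_a_at), the isoform used by most cells and neurons, measured 10.6, 10.3 and 10.6 in Plk3-KO against 10, 10.4 and 10.4 in WT at P0. At P7 it measured 12.1, 12.1 and 12.2 in Plk3-KO against 12.1, 12.3 and 12.1 in WT, and in the adult 13.9, 13.7 and 12.8 against 13.5, 13.5 and 13.2. No P7 array overlapped with P0 and no adult array with P7. Hk1 was higher at P7 than at P0 by 1.63 ± 0.23 (SE, adjusted p = 9.09e-05) in Plk3-KO and by 1.90 ± 0.23 (adjusted p = 2.39e-05) in WT, and higher in the adult than at P7 by 1.33 and 1.23 (adjusted p = 9.30e-04 and 0.00174). The calls after P7 were lost with the mean of both Hk1 probe sets (1.40, adjusted p = 0.0538 in Plk3-KO and 1.23, adjusted p = 0.0851 in WT), and the Plk3-KO call in the methods' t-test after adjustment (adjusted p = 0.14). The whole rise was 2.97 in Plk3-KO and 3.13 in WT, of which 55.1% and 60.6% lay before P7.

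Hk2 (chr6:82725025-82774454, probe set 1422612_at), which binds mitochondria and is the inducible hexokinase of muscle, tumours and photoreceptors, measured 9.4, 9.4 and 9.3 in Plk3-KO against 9.0, 9.0 and 9.4 in WT at P0. At P7 it was 9.0, 8.4 and 8.7 in Plk3-KO against 9.1, 9.1 and 8.7 in WT. In the adult it was 13.1, 13.3 and 12.8 in Plk3-KO against 12.8, 12.7 and 12.8 in WT. All adult arrays thus stood well clear of every earlier array, and the P7 arrays lay under all P0 arrays in Plk3-KO and overlapped with them in WT. Between P7 and the adult Hk2 rose by 4.37 ± 0.19 in Plk3-KO (20.6-fold, adjusted p = 1.97e-09) and by 3.80 ± 0.19 in WT (13.9-fold, adjusted p = 1.72e-08), the largest change of any member at this step and the smallest adjusted p of all 25085 probe sets in each genotype. Between P0 and P7 it fell by 0.67 ± 0.19 in Plk3-KO (adjusted p = 0.0186), and was -0.17 ± 0.19 in WT (adjusted p = 0.58). The fall in Plk3-KO was no longer called once each array was centred on its median (-0.43, adjusted p = 0.396), a scaling under which the WT difference was 0.07, nor without 1 of the first and second P0 or the second and the third P7 Plk3-KO arrays (adjusted p = 0.0509 to 0.0922). The difference between the genotypes in this step was -0.50 ± 0.26 (adjusted p = 1).

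Both phosphofructokinases were higher in the adult than at P0. Pfkm (chr15:98092589-98132447, probe set 1416780_at), the muscle isoform, measured 9.5, 9.4 and 9.5 in Plk3-KO against 9.2, 9.7 and 9.5 in WT at P0, and 10.1 on each P7 Plk3-KO array against 10.3, 10.3 and 9.9 in WT. Its adult values were 11.2, 11.5 and 10.6 in Plk3-KO against 11.6, 11.5 and 11.2 in WT, above all P7 arrays. Adult minus P0 was 1.63 ± 0.21 in Plk3-KO (adjusted p = 1.23e-05) and 1.97 ± 0.21 in WT (adjusted p = 1.92e-06). Adult minus P7 was 1.00 (adjusted p = 0.00392) and 1.27 (adjusted p = 7.52e-04), the Plk3-KO call being lost with median centring (1.03, adjusted p = 0.0843). P7 minus P0 was 0.63 (adjusted p = 0.043) and 0.70 (adjusted p = 0.0271), close to the threshold: the call was lost without any 1 of the P0 or P7 Plk3-KO arrays (adjusted p = 0.09 to 0.118), and in WT without the first or the third P0 or the first or second P7 WT array (adjusted p = 0.0634 to 0.123). It also moved past 0.05 in Plk3-KO without the third P0, first P7 or second adult WT array or the first adult Plk3-KO array, where only the estimate of the spread changed (adjusted p = 0.0502 to 0.0552).

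Pfkp (chr13:6579874-6649060, probe set 1416069_at), the platelet isoform, which is also the main form in brain, measured 10.4, 10.8 and 10.9 in Plk3-KO against 10.6, 10.9 and 10.5 in WT at P0. It measured 11.4, 10.6 and 11.7 in Plk3-KO against 11.3, 11.5 and 11.4 in WT at P7, and 12.2, 12.6 and 12.6 against 12.2, 12.4 and 12.6 in the adult. The second P7 Plk3-KO array, 1 of those that stand apart, alone lay within the P0 range. Adult minus P0 was 1.77 ± 0.24 in Plk3-KO (adjusted p = 2.09e-05) and 1.73 ± 0.24 in WT (adjusted p = 2.71e-05). The first step was 0.53 ± 0.24 in Plk3-KO (adjusted p = 0.136), and 0.85 (adjusted p = 0.0101) without that array, and 0.30 without the third P7 Plk3-KO array. In WT it was 0.73 ± 0.24 (adjusted p = 0.0411), a call lost without any 1 of the 3 P7 WT arrays, the first or the third P0 WT array, the second P0 Plk3-KO array or the second adult WT array. Adult minus P7 was 1.23 (adjusted p = 0.00229) in Plk3-KO and 1.00 (adjusted p = 0.00938) in WT. Of the whole change, 30.2% in Plk3-KO and 42.3% in WT lay before P7. In Plk3-KO that share was 50% without the 4 arrays, where both steps were 0.85, and 63.6% with the mean of the probe sets of Pfkp, so that the order of the steps turned. With that mean, adult minus P7 was 0.47 (adjusted p = 0.603) in Plk3-KO and 0.57 (adjusted p = 0.496) in WT, and adult minus P0 was 1.28 (adjusted p = 0.0735) in Plk3-KO and 0.80 (adjusted p = 0.245) in WT.

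Both aldolases rose at each step. Aldoa (chr7:126795234-126800994, probe set 1416921_x_at), the muscle and general isoform, measured 12.4, 12.5 and 11.8 in Plk3-KO against 12.2, 12.9 and 12.1 in WT at P0, then 13.7, 14.1 and 13.8 against 13.8, 13.6 and 14.2 at P7. In the adult it reached 15.3, 15.0 and 15.5 in Plk3-KO against 15.5, 15.2 and 14.7 in WT. Neighbouring ages did not overlap in either genotype. Adult minus P0 was 3.03 ± 0.28 in Plk3-KO (8.19-fold, adjusted p = 3.36e-07) and 2.73 ± 0.28 in WT (6.65-fold, adjusted p = 1.19e-06). Before P7 lay 53.8% of the rise in Plk3-KO and 53.7% in WT, so that the steps were of similar size. They are not of equal length in days, and the labels give no adult day, so these shares are not rates. The share was 63.6% in Plk3-KO and 60.9% in WT with quantile normalization. Without the 4 arrays that stand apart it was 52.0% in Plk3-KO and 44.1% in WT, so that the order of the steps turned in WT.

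Aldoc (chr11:78323073-78327781, probe set 1451461_a_at), the isoform of brain, known in cerebellum as zebrin II and found in astroglia, measured 9.7, 9.3 and 8.6 in Plk3-KO against 8.9, 9.1 and 10.4 in WT at P0. It measured 12.2, 11.8 and 11.9 in Plk3-KO against 12.3, 12.0 and 12.0 in WT at P7, and 14.5, 14.2 and 14.9 against 14.9, 14.6 and 14.0 in the adult. The P0 arrays had the widest spread (SD 0.56 in Plk3-KO and 0.81 in WT), with the third WT array highest, and no ages overlapped. P7 minus P0 was 2.77 ± 0.36 in Plk3-KO (adjusted p = 4.02e-05) and 2.63 ± 0.36 in WT (adjusted p = 7.30e-05). Adult minus P7 was 2.57 ± 0.36 (adjusted p = 1.68e-04) and 2.40 ± 0.36 (adjusted p = 3.16e-04). The whole change, 5.33 in Plk3-KO and 5.03 in WT, was the largest among the members. Müller glia are the retina's own radial glia, and 8 of 8 of their markers were on the array. Their summed levels were 14.3 to 14.4 in Plk3-KO and 14.0 to 14.4 in WT at P0. These levels were 14.1 to 14.2 and 14.2 to 14.6 at P7, and 15.3 to 15.5 and 15.3 to 15.8 in the adult. From P0 to P7, 4 of the 8 were called higher and 2 lower in Plk3-KO, and 4 and 1 in WT. From P0 to the adult, 6 were called higher and 1 lower in each genotype. The part of these markers in the Aldoc change was not tested.

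Eno2 (chr6:124760053-124769673, probe set 1418829_a_at), the neuron-specific enolase, measured 9.5, 9.1 and 9.1 in Plk3-KO against 9.2, 9.4 and 9.1 in WT at P0. At P7 it measured 11.2, 10.8 and 11.7 in Plk3-KO against 11.4, 11.9 and 10.4 in WT, and in the adult 13.1, 13.3 and 12.3 against 13.4, 13.5 and 12.9. The lowest array at P7 in each genotype and at the adult age in each genotype was 1 of the 4 that stand apart, and even so neighbouring ages did not overlap. Adult minus P0 was 3.67 ± 0.34 in Plk3-KO (12.7-fold, adjusted p = 3.83e-07) and 4.03 ± 0.34 in WT (16.4-fold, adjusted p = 1.48e-07), with 54.5% and 49.6% of it before P7. Eno1, the general enolase, had no probe set of its own in the annotation used and was not analysed here.

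Pkm (chr9:59656576-59679372, probe set 1417308_at), whose 2 splice forms M1 and M2 are not told apart by this probe set, rose mainly after P7. It measured 12.9, 12.7 and 12.8 in Plk3-KO against 13.0, 13.2 and 12.4 in WT at P0, and 13.0, 13.2 and 13.1 against 13.1, 13.1 and 13.7 at P7. The adult values were 14.7, 14.3 and 13.6 in Plk3-KO against 14.6, 14.3 and 14.0 in WT. P7 minus P0 was 0.30 ± 0.28 in Plk3-KO (adjusted p = 0.509) and 0.43 ± 0.28 in WT (adjusted p = 0.305). Adult minus P7 was 1.10 ± 0.28 (adjusted p = 0.0124) and 1.00 ± 0.28 (adjusted p = 0.0209), calls that were lost without the first adult Plk3-KO array (adjusted p = 0.0629) and, in WT, without any of the first 2 adult or first 2 P7 WT arrays (adjusted p = 0.0632 to 0.1). Both were also lost with median centring (1.13 in each genotype, adjusted p = 0.15 in Plk3-KO and 0.133 in WT). Over both steps Pkm rose by 1.40 ± 0.28 in Plk3-KO (adjusted p = 7.10e-04) and 1.43 ± 0.28 in WT (adjusted p = 6.06e-04). Of this rise, 21.4% in Plk3-KO and 30.2% in WT lay before P7.

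Both lactate dehydrogenase subunits were higher in the adult than at P0. Ldha (chr7:46842274-46855627, probe set 1419737_a_at), the subunit of muscle type that favours lactate formation, measured 13.6, 13.6 and 13.1 in Plk3-KO against 13.8, 13.8 and 13.1 in WT at P0. It measured 14.3, 14.8 and 14.3 in Plk3-KO against 14.3, 13.9 and 15.0 in WT at P7, and 15.0, 14.7 and 15.0 against 15.3, 14.8 and 14.3 in the adult. The highest P7 value in each genotype came from the array that stands apart, and the P7 and adult arrays overlapped in both. P7 minus P0 was 1.03 ± 0.31 in Plk3-KO (adjusted p = 0.0287) and 0.83 ± 0.31 in WT (adjusted p = 0.0761). The Plk3-KO call was lost without any 1 of the P0 Plk3-KO arrays or the second P7 one (adjusted p = 0.0515 to 0.128), and the WT step was called without the second P7 WT array (1.08, adjusted p = 0.0374). Adult minus P7 was 0.43 ± 0.31 (95% interval -0.23 to 1.10, adjusted p = 0.376) and 0.40 ± 0.31 (-0.27 to 1.07, adjusted p = 0.399). Without the 4 arrays that stand apart, P7 minus P0 was 0.87 (adjusted p = 0.015) in Plk3-KO and 0.53 (adjusted p = 0.109) in WT, and adult minus P7 was 0.55 (adjusted p = 0.117) and 0.95 (adjusted p = 0.0105). With quantile normalization adult minus P7 was -0.032 in Plk3-KO and 0.046 in WT. The whole change, 1.47 in Plk3-KO (adjusted p = 0.00137) and 1.23 in WT (adjusted p = 0.00482), had 70.5% and 67.6% of its size before P7. Without the 4 arrays these shares were 61.2% in Plk3-KO and 36.0% in WT, so that the order of the steps turned in WT, and without the third P7 WT array alone the WT share was 43.2%. The whole change was 0.91 (adjusted p = 0.0709) and 0.82 (adjusted p = 0.0569) in these genotypes with the actin 3′ minus 5′ signal as a covariate, under which the other 9 members kept their adult minus P0 call.

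Ldhb (chr6:142490249-142507957, probe set 1448237_x_at), the heart type subunit that favours the use of lactate, measured 11.2, 11.2 and 11.4 in Plk3-KO against 11.5, 11.6 and 11.3 in WT at P0, and 11.6, 11.4 and 11.4 against 11.5, 11.3 and 12.3 at P7. In the adult it measured 12.9, 12.7 and 12.5 in Plk3-KO against 12.8, 12.7 and 12.5 in WT. The ages P0 and P7 overlapped and the adult arrays lay above both. P7 minus P0 was 0.20 ± 0.21 in Plk3-KO (adjusted p = 0.575) and 0.23 ± 0.21 in WT (adjusted p = 0.487), the WT value being -0.067 without the third P7 WT array. Adult minus P7 was 1.23 ± 0.21 (adjusted p = 9.82e-04) and 0.97 ± 0.21 (adjusted p = 0.00558). Both calls were lost with median centring (1.27, adjusted p = 0.0508 in Plk3-KO and 1.10, adjusted p = 0.0798 in WT), and the WT call in the methods' t-test after adjustment (adjusted p = 0.193). By the leading probe set 14.0% of the whole change in Plk3-KO and 19.4% in WT lay before P7.

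Groups without overlap were common on these arrays as a whole. The P7 and P0 arrays did not overlap for 8 members in Plk3-KO and 7 in WT, against 39.7% and 39.8% of all probe sets. The adult and P7 arrays did not overlap for 9 members in each genotype (28.7% and 29.5% of probe sets), and the adult and P0 arrays for all 10 (51.6% and 55.7%).

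Differences between isoforms on the same array show the balance within an enzyme step, in units in which only the change with age can be read. Hk2 minus Hk1 was -1.13 ± 0.21 in Plk3-KO and -1.13 ± 0.23 in WT at P0 (SD, n = 3 each), -3.43 ± 0.31 and -3.20 ± 0.20 at P7, and -0.40 ± 0.40 and -0.63 ± 0.21 in the adult. The balance thus moved towards Hk1 by 2.30 in Plk3-KO and 2.07 in WT in the first week, and back towards Hk2 by 3.03 and 2.57 after it, with no overlap between the arrays of P7 and those of the other ages. Aldoc minus Aldoa was -3.03 ± 0.29 in Plk3-KO and -2.93 ± 1.10 in WT at P0, -1.90 ± 0.40 and -1.77 ± 0.38 at P7, and -0.73 ± 0.12 and -0.63 ± 0.06 in the adult. This balance moved towards Aldoc by 2.30 in each genotype over the 3 ages. In WT the P0 arrays (-3.8 to -1.7) overlapped with the P7 arrays (-2.2 to -1.5). The WT change of the first week, 1.17, was 1.78 without the third P0 WT array and 0.73 without the second. Ldhb minus Ldha was -2.17 ± 0.40 in Plk3-KO and -2.10 ± 0.26 in WT at P0, -3.00 ± 0.36 and -2.70 ± 0.10 at P7, and -2.20 ± 0.26 and -2.13 ± 0.35 in the adult. It moved towards Ldha by 0.83 and 0.60 and came back by 0.80 and 0.57, which left the adult within the spread of P0. Pfkp minus Pfkm stayed within the spread of its arrays, from 0.97 ± 0.40 in adult WT to 1.37 ± 0.55 in adult Plk3-KO. The sign of its change turned in places with the mean of each gene's probe sets in place of the leading ones. No test was run on these differences, which are computed from values tested above.

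**Figure D3:**
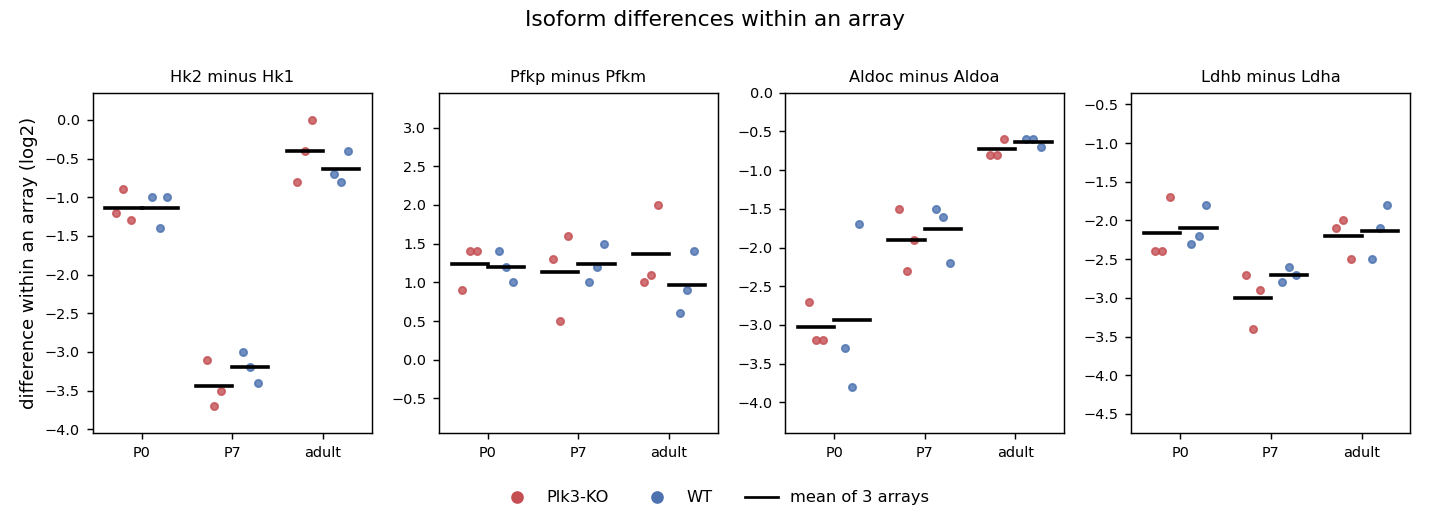
Difference between 2 isoforms on the same array (log2), by age, with Plk3-KO in red to the left of WT in blue and black bars at the mean of 3 arrays; each axis spans the same number of log2 units. Hk2 minus Hk1 drops to between -3.7 and -3.0 at P7 and the mean of Aldoc minus Aldoa climbs at each age.

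Besides the leading ones, the members had 11 further probe sets. Of the 9 that passed the filter, 8 were called higher in the adult than at P0 in Plk3-KO and 8 in WT. The exception among them was a Pfkp probe set, 1437759_at, with values between 6.6 and 10.4 and differences of 0.80 (adjusted p = 0.516) in Plk3-KO and -0.13 (adjusted p = 0.919) in WT. The 4 further Aldoa probe sets differed by 1.53 to 3.33 in Plk3-KO and by 1.37 to 3.10 in WT. The 3 further Ldhb probe sets differed by 1.00 to 1.20 and by 1.03 to 1.20. The second Hk1 probe set, 1420901_a_at, was 2.90 in Plk3-KO (adjusted p = 0.00757) and 3.07 in WT (adjusted p = 0.00529), and was low, at 7.5 and 7.6, on the P7 arrays that stand apart. The second Aldoc probe set, 1424714_at, and another of Pfkp, 1430634_a_at, did not pass the filter; their highest values were 7.3 and 7.5, and their adult means lay above their P0 means in both genotypes. The lead probe sets of Aldoa and Ldhb carry the suffix of designs whose probes can also bind other transcripts, so RNA of near-identical copies may add to their signal.

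No member was called different between Plk3-KO and WT retinas. Of the 10 members, 0 were called at P0, P7, in the adult or in the mean over ages, as were 0% of all 22611, 21390, 21005 and 25085 probe sets tested. The Plk3 probe set itself was thus not called in the adult, at 7.4 to 8.0 in Plk3-KO and 3.9 to 5.9 in WT. The lack of a call therefore does not show that a gene was unchanged. In limma, 0 members had an unadjusted p under 0.05 at any age, against 85, 123 and 1008 of all probe sets at P0, P7 and in the adult, and the methods' t-test before adjustment gave 0 members at each age, against 503, 250 and 660 of all probe sets. All these counts are under the share of 0.05 expected with no difference between genotypes, most of all in limma at P0 and P7. Both tests were thus cautious here, and the absence of members says little. The cause was not tested. The Plk3-KO and WT arrays of an age overlapped for all 10 members at each age, where 3.49%, 1.92% and 5.48% of probe sets did not. Differences ran from -0.27 (Aldoc) to 0.23 (Hk1 and Hk2) at P0, from -0.27 (Hk2) to 0.07 (Ldha) at P7 and from -0.37 (Eno2) to 0.30 (Hk2) in the adult. The interval for Hk2 in the adult was -0.10 to 0.70 (adjusted p = 0.977), that for Pfkm -0.78 to 0.11 around -0.33, and that for Eno2 -1.09 to 0.35, so that differences of the size of the bounds cannot be told from 0 with 3 arrays a group. The Pfkm and Eno2 differences were -0.08 and -0.07 without the third adult Plk3-KO array. Hk2 had a difference of 0.53 (adjusted p = 0.0328) in the adult when arrays were weighted by their estimated quality, an estimate that did not converge. With these weights many other probe sets were called too, and their number is given in the last paragraph.

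**Figure D4:**
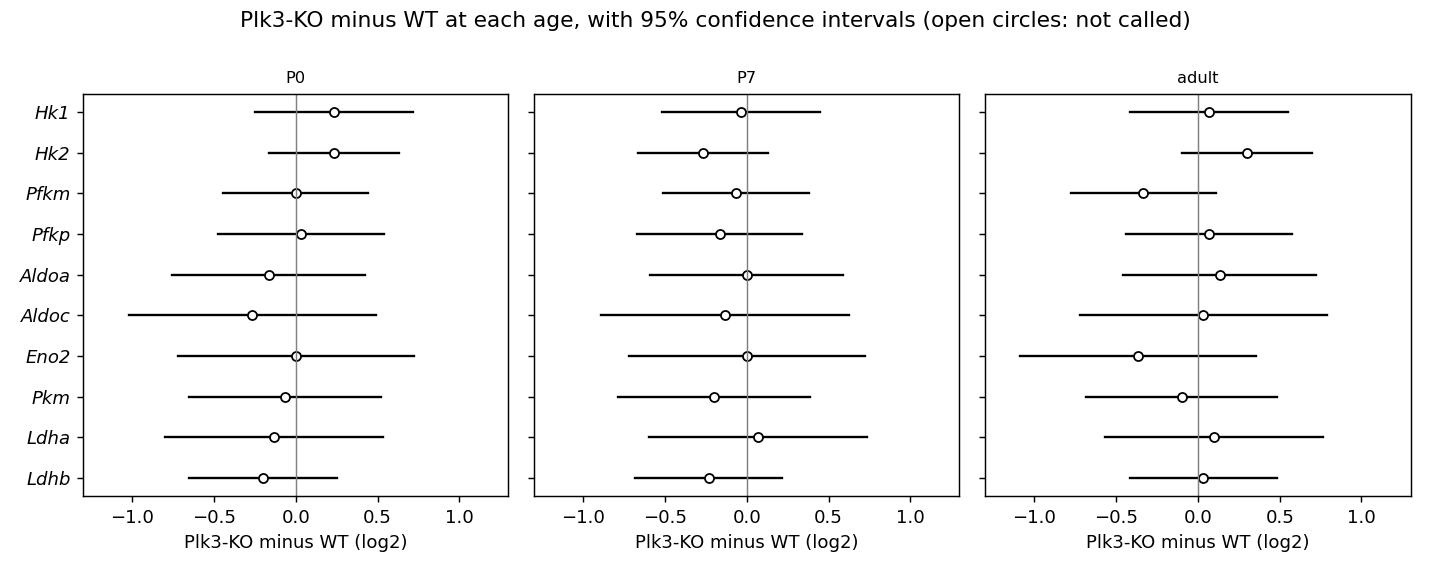
Plk3-KO minus WT (log2) for each member at P0, P7 and in the adult, with 95% confidence intervals of the limma fit; open circles are not called. Every interval includes 0, and the widest is that of Aldoc at each age.

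The changes with age were also set against each other between the genotypes. Of the 10 members, 0 had a called difference of change, as had 0% of the 25085 probe sets for each pair of ages. The largest was that of Hk2 between P7 and the adult, 0.57 ± 0.26 more in Plk3-KO (95% interval 0.01 to 1.13, unadjusted p = 0.0477, adjusted p = 1), 1 of 351 probe sets with an unadjusted p under 0.05 there. The other differences ran from -0.37 to 0.27 for this step.

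The remaining genes of glycolysis moved less uniformly. Of 18 listed, 13 had a probe set of their own and 7 passed the filter, of which 4 were higher and 1 lower in the adult than at P0 in each genotype, with medians of 1.23 in Plk3-KO and 0.93 in WT. Named by mean level, Pgk1 (phosphoglycerate kinase) differed by 1.23 (adjusted p = 0.00805) in Plk3-KO and 0.93 (adjusted p = 0.0344) in WT, Tpi1 (triosephosphate isomerase) by 1.63 (adjusted p = 0.00102) and 1.57 (adjusted p = 0.00146), and Pgam1 (phosphoglycerate mutase) by 1.33 (adjusted p = 8.40e-05) and 1.37 (adjusted p = 6.91e-05). Pfkl, the liver phosphofructokinase, rose by 2.17 (adjusted p = 2.46e-04) and 2.37 (adjusted p = 1.13e-04). The lower gene, named after its values were seen, was the hexokinase-like Hkdc1, at 7.93 in Plk3-KO and 8.27 in WT in the adult against 10.8 and 10.4 at P0 (adjusted p = 1.94e-06 and 3.89e-05). Gpi1 had no probe set of its own in the annotation used, and Gapdh had only control probe sets, which were not tested.

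Glucose and lactate transporters were 4 higher and 0 lower of 7 tested, adult minus P0, in each genotype, with a median of 1.57 in both. Slc16a1 (the lactate transporter MCT1) rose by 3.20 ± 0.28 in Plk3-KO (adjusted p = 2.04e-07) and 3.03 ± 0.28 in WT (adjusted p = 4.11e-07), and Bsg (basigin, its partner at the membrane) by 1.57 in each (adjusted p = 9.84e-06 and 1.06e-05). The neuronal glucose transporter Slc2a3 rose by 2.27 (adjusted p = 1.28e-06) and 2.43 (adjusted p = 6.69e-07). Slc2a1, the glucose transporter of barriers and photoreceptors, was -0.17 (adjusted p = 0.626) in Plk3-KO and 0.13 (adjusted p = 0.693) in WT. Of the regulators of glycolysis and of the fate of pyruvate, 5 of 12 tested were higher in Plk3-KO, 6 in WT and 0 lower in either, with medians of 0.60 and 0.67. Hif1a, the oxygen-sensitive subunit of HIF-1, rose by 0.87 (adjusted p = 0.00805) in Plk3-KO and 1.10 (adjusted p = 0.00157) in WT. The pyruvate dehydrogenase subunit Pdha1 rose by 0.90 (adjusted p = 9.00e-04) and 0.67 (adjusted p = 0.00778), and the pyruvate carrier Mpc1 by 0.90 (adjusted p = 0.00605) and 0.80 (adjusted p = 0.0122). Pdhb was 0.30 (adjusted p = 0.411) and 0.37 (adjusted p = 0.302).

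Patterns over the 18 arrays were compared by the root mean square distance between probe sets, each centred on its own mean, over the 12109 genes whose lead probe set passed the filter. The distance is a description, since all genes share the same arrays and ages. Pkm and Ldhb were close to each other: Ldhb was the nearest gene to Pkm, and Pkm the second nearest to Ldhb after Sil1, at a distance of 0.21 log2 units. No other member had a fellow member among its 2 nearest. Of the members, Hk2 had the most distant nearest gene, with Stk35 at 0.47 and Faim at 0.50, and its nearest fellow member was Eno2, at 1.16. The nearest to Aldoc were Thrsp at 0.32 and Calb1, a calcium-binding protein of horizontal and amacrine cells, at 0.44, and the nearest to Eno2 were Gabrd (a GABA receptor subunit) at 0.25 and Gnb5 at 0.30. The other members had neighbours at 0.15 to 0.27, which were Gabarapl1 and Ndrg3 for Hk1, Slc39a3 and Nap1l2 for Pfkm, Gpr155 and Tmem50b for Pfkp, Cystm1 and Ccdc107 for Aldoa, and Cisd1 and Use1 for Ldha.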

How the data were processed

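The values are log2 MAS5 signals that the authors deposited for 45101 probe sets of 18 arrays, given to 1 decimal; no source used here gives the MAS5 version, and no normalization was added. Control probe sets (64) were left out. In the array annotation used, 34958 probe sets carry 1 gene symbol, 932 several and 9211 none. Probe sets with a mean above 7 in at least 1 of the groups compared were tested. R 4.3.3 with limma 3.58.1 fitted 6 group means to the 18 arrays, with variances moderated along the mean (12 residual and 4.07 prior degrees of freedom), and Benjamini-Hochberg adjustment at 0.05 within each contrast. The fit was also run on simulated data with independent noise. These had no deviations shared between arrays, so that run does not check the fit against them. The contrasts were the ages within each genotype, Plk3-KO minus WT at each age, and their differences. The members and gene lists were chosen with earlier results of these data known. Named besides the members were the 4 genes of highest mean of each pathway list and the 2 genes of nearest pattern to each member. Alternatives changed the normalization, filter, variance model, arrays, probe set, test or covariate. Enolase isoforms were not compared, since Eno1 was not analysed here. The number of arrays limits the precision. Same-numbered Plk3-KO and WT arrays were not treated as pairs.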

Additional observations from a re-analysis of the deposited data

How the results depend on the processing

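The counts of members called higher between the adult and P0 (10 in each genotype) were 9 or 10 in every alternative, and 10 on leaving out any 1 array. Members higher at P7 than at P0 numbered 4 to 6 on leaving out 1 array (6 in each genotype with all), those higher in the adult than at P7 numbered 8 to 9 (9 with all), and the count called between genotypes stayed at 0. The 1 member lower at P7 in Plk3-KO (Hk2) became 0 with median centring, with the methods' t-test after Benjamini-Hochberg adjustment, and on leaving out 1 of 4 arrays, for a range of 0 to 1. The methods' t-test after adjustment gave 3 members higher at P7 than at P0 in WT and 3 higher in the adult than at P7 in each genotype. Array weights, whose estimate did not converge, gave 1 member called between genotypes in the adult (Hk2), beside many other probe sets, counted in the last paragraph. The replicate block used the array numbers, which no label ties to a litter. It left the calls at 6, 9 and 10 members higher and 1 lower, and 0 between genotypes. The deviations of Plk3-KO arrays from their group mean were correlated with those of the WT arrays of the same age. The best correlation was with the same number for 3 of 3 arrays in the adult and 1 of 3 at P7 and at P0.

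Among single members, signs turned only for differences that were not called. They were Ldha adult minus P7 in Plk3-KO (-0.032 with quantile normalization and -0.062 with the actin covariate), Hk2 P7 minus P0 in WT (0.067 with median centring), Ldhb P7 minus P0 in WT (-0.0064 with array weights, -0.067 without the 4 arrays that stand apart and -0.067 to 0.43 on leaving out 1 array), Aldoc Plk3-KO minus WT at P0 (0.11 with array weights, and -0.55 to 0.20 on leaving out 1 array) and Eno2 Plk3-KO minus WT in the adult (0.020 with the actin covariate). The change of Pfkp minus Pfkm turned in sign as well. With the leading probe sets it was 0.03 from P0 to P7 in WT and 0.23 from P7 to the adult in Plk3-KO. With the mean of each gene's probe sets it was -0.47 from P0 to P7, -0.70 from P7 to the adult and -1.17 over both in WT. In Plk3-KO it was -0.53 from P7 to the adult with that mean, and -0.40 with the leading probe sets without the 4 arrays. Without those arrays the change of Hk2 minus Hk1 from P7 to the adult in WT was 2.35. The cause of these changes was not tested. Under median centring the median of all probe sets, adult minus P0, was 0.10 in Plk3-KO and 0.20 in WT in place of -0.23 and -0.20, and 57.7% and 61.0% of calls were higher in place of 44.4% in each; called probe sets from P7 to the adult numbered 2335 and 2652 in place of 4307 and 4348, and 9032 and 10847 without the 4 arrays. With array weights they numbered 11033 and 13785, and with the methods' t-test after adjustment 481 and 543. Between genotypes in the adult, 0 probe sets were called, against 338 without the 4 arrays, 105 without the third adult WT array and 1452 with array weights.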
